A study of Homo sapiens with 9 samples.

Results

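The genes described here are the human ZNF genes that ES-2 cells express, 210 in number. They were chosen by name and level: protein-coding genes called ZNF with a number and at most 1 further letter, whose mean over the siC libraries was at least 2 FPKM (fragments per kilobase of gene, scaled to the reads of the library). The tables hold 510 protein-coding ZNF genes, of which 300 lay below this level and 68 were listed at 0 in every siC library. At the same level there were 9223 protein-coding genes in all, ZNF genes included. The siC level chose the members and is therefore given as a description.

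ES-2 is an established cell line from an ovarian carcinoma, and it was studied here after depletion of IGF2BP1, an RNA-binding protein, or of SRF, a transcription factor. Cells were transfected for 72 h with a control siRNA (siC), with a pool of siRNAs against IGF2BP1 (siIGF2BP1) or with siRNA against SRF (siSRF), and total RNA of 3 libraries per condition was sequenced after removal of ribosomal RNA. The labels do not say whether libraries of 1 condition came from separate cultures, so the p-values measure the spread between libraries, which may be technical. All 9 libraries carry the cell line's own background and a transfected siRNA, and no untransfected cells were analysed here. The libraries held 6421764 to 9416175 reads on genes. In siC, the keratin gene KRT7 stood at 101 FPKM, KRT18 at 43.4 FPKM, KRT8 at 8.81 FPKM and VIM at 1055 FPKM, while PAX8 was at 0.155 FPKM, MUC16, EPCAM and KRT19 were listed at 0, and the markers of other cells PTPRC, CD3E and ALB were at 0 in all libraries and PECAM1 at 0.313 FPKM. The IGF2BP1 mRNA was at 12.8, 13.5 and 12.1 FPKM in siC and at 4.18, 4.14 and 4.02 FPKM in siIGF2BP1. The SRF mRNA was at 13.6, 14.1 and 16 FPKM in siC, at 5.80, 5.42 and 6.80 FPKM in siIGF2BP1 and at 1.63, 1.36 and 1.42 FPKM in siSRF, so that siIGF2BP1 cells had less of both mRNAs.

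Most ZNF genes encode proteins with a row of C2H2 zinc fingers, small folds in which a pair of cysteines and a pair of histidines hold a zinc ion. The fingers read DNA, and neighbouring fingers are joined by a short conserved linker. Many of these proteins carry a KRAB domain, which recruits the corepressor TRIM28 and through it the histone methyltransferase SETDB1 and heterochromatin protein 1, and a large number of their genes lie in clusters on chromosome 19. The family also holds proteins with few or no DNA-binding fingers that act in ribosome assembly, translation control or at the cytoskeleton.

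The label of the family was checked on the proteins translated from the main GENCODE transcripts, available for 209 of the 210 members. A C2H2 finger, searched as a cysteine pair and a histidine pair at the usual spacing, was found in 204 of them. The 5 without a match were ZNF185, a LIM domain protein of the actin cytoskeleton, ZNF703 and its relative ZNF503, corepressors of the NET family, ZNF839 and ZNF330. The median member held 9 fingers, and the highest number was 36. At least 1 canonical linker was present in 150 members, a KRAB match in 96 (45.9%) and a SCAN match, another protein interaction domain, in 9. Among the ZNF genes below the level, 227 of 297 (76.4%) had a KRAB match, and 178 (59.3%) lay on chromosome 19 against 68 (32.4%) of the members and 5.21% of the other protein-coding genes at the same level.

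The linker shows what the family shares in sequence. The first linker of 4 members on which the results turn is printed below from the coding part of their GENCODE main transcripts (GRCh38), with its 5 codons in capitals. ZNF146 and ZNF664 are each other's closest relatives among the members (55.0% protein identity), as are ZNF33A and ZNF33B (92.9%).
ZNF146: attcacACTGGAGAAAAACCTtttgagtgt
ZNF664: gttcatACAGGTGAGAAACCGtatgtctgt
ZNF33A: tcacacACAGGGGAGAAACCTtttgaatgc
ZNF33B: tcacacACAGGGGAGAAACCTtttgaatgc
The linker codons encode the same residues in all 4 and differ in bases between ZNF146, ZNF664 and the ZNF33 pair, while ZNF33A and ZNF33B have the same bases over the whole window. The coding sequences of the latter pair were 96.3% identical over 2334 aligned bases, and their longest identical run was 134 bases. The first difference after that run is in capitals below.
ZNF33A: cagtggggtattgtgTtcacaaaccagagg
ZNF33B: cagtggggtattgtgCtcacaaaccagagg
Reads that fall within such identical runs cannot be assigned to either gene, so the values of these genes are uncertain with respect to each other. A relative of at least 80% protein identity existed for 11 members in all.

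ZNF genes stood at low to moderate levels. The siC mean ran from 2.01 to 33.6 FPKM with a median of 4.49 FPKM, against a median of 8.87 FPKM for the other protein-coding genes at or above the level. Below 4 FPKM lay 97 members, and 27 reached 10 FPKM. The highest were ZNF22, ZNF622, ZNF593, ZNF703, ZNF146 and ZNF121, at siC means of 33.6, 31.9, 27.2, 26.2, 24.6 and 21.8 FPKM, none of which has a KRAB match. Just inside the level were ZNF618 (2.01 FPKM), ZNF616 (2.05 FPKM) and ZNF34 (2.05 FPKM), and just outside were ZNF688 (1.998 FPKM), ZNF484 (1.99 FPKM) and ZNF160 (1.99 FPKM). The median member rested on 174 reads per library, with a range over members of 34.3 to 1914, and its median coefficient of variation among libraries of 1 condition was 8.97%. Exons of 112 members overlap exons of another gene, 55 of them on the same strand, and the strand setting of the counting is not given in the sources used here, so reads of overlapping genes cannot be told apart in these members. Of the members named below, those with an overlap on the opposite strand include ZNF146, ZNF593, ZNF384, ZNF460, ZNF33B, ZNF518A and ZNF143. Those with one on the same strand include ZNF83, ZNF207, ZNF318, ZNF395, ZNF616 and ZNF620, and those with overlaps on both include ZNF358, ZNF503, ZNF638 and ZNF664.

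To see which ZNF mRNAs depend on IGF2BP1, siIGF2BP1 was compared with siC by limma on log2(FPKM + 0.1) over all 22292 genes tested, with a call at a Benjamini-Hochberg adjusted p of at most 0.01, the threshold of the study. Upon IGF2BP1 depletion, 6 of the 210 members decreased and 7 increased. The background over protein-coding genes of at least 2 FPKM in siC was 7.97% lower and 6.43% higher, and 3.57% and 3.55% over all genes tested, while 2.86% and 3.33% of the members were called. The median log2 fold change was 0.03 for the members and -0.04 for the other protein-coding genes at the level. The 95% interval of the fold change stayed within 1.5-fold in either direction for 148 members and within 2-fold for 203. Libraries of the groups did not overlap for 39 members that were lower and 57 that were higher (18.6% and 27.1%), where the background was 31% and 23.7%.

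The lower members included genes of ribosome assembly and of the cytoskeleton. ZNF185 (chromosome X, 152898067 to 152973481, plus strand) is the LIM protein that binds actin filaments, and it was at 7.62, 7.06 and 6.58 FPKM in siC and at 3.06, 3.39 and 4.0 FPKM in siIGF2BP1. The groups did not overlap, and the log2 fold change was -1.01 ± 0.12 (SE; limma, adjusted p = 0.00338). ZNF593 (chromosome 1, 26169908 to 26170873, plus strand), the human relative of a yeast export factor of the large ribosomal subunit, was at 26.8, 27.9 and 27.0 FPKM in siC and at 16.5, 13.9 and 17.2 FPKM in siIGF2BP1. All siIGF2BP1 libraries were below all siC libraries, with a log2 fold change of -0.78 ± 0.08 (SE; limma, adjusted p = 0.00244). ZNF622 (chromosome 5, 16451519 to 16465800, minus strand), a maturation factor of the same subunit, was at 28.7, 32.7 and 34.2 FPKM in siC and at 22.8, 23.5 and 22.3 FPKM in siIGF2BP1. Its log2 fold change was -0.47 ± 0.07 (SE; limma, adjusted p = 0.00793), again without overlap of the libraries. ZNF664 (-0.47), the KRAB gene ZNF460 (-0.60) and ZNF384 (-0.40), a transcription factor found in leukaemia fusions, completed the lower members, each with separate groups. ZNF598, the ubiquitin ligase that marks collided ribosomes, was at 20.3, 22.1 and 22.1 FPKM in siC and at 18.3, 14.5 and 18.3 FPKM in siIGF2BP1, and it did not pass the test (limma adjusted p = 0.0723).

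ZNF488, a nuclear protein of oligodendrocyte differentiation, was the highest riser by fold. It was at 3.51, 4.21 and 2.85 FPKM in siC and at 7.83, 7.25 and 7.53 FPKM in siIGF2BP1, a log2 fold change of 1.09 ± 0.14 (SE; limma, adjusted p = 0.00488). The siIGF2BP1 libraries were all above the highest siC library. ZNF33A was at 6.30, 6.12 and 7.09 FPKM in siC and at 10.3, 10.9 and 10.7 FPKM in siIGF2BP1, and ZNF33B was at 3.08, 2.76 and 3.06 FPKM in siC and at 5.97, 5.17 and 5.56 FPKM in siIGF2BP1. The near-identical pair rose by log2 fold changes of 0.70 (limma adjusted p = 0.0024) and 0.88 (limma adjusted p = 0.00256), with the limit on assigning their reads noted above. ZNF518A (0.69), ZNF83 (0.60) and ZNF703 (0.46) were higher as well, ZNF703 being a corepressor amplified in luminal breast cancer, and so was ZNF770 (0.36). ZNF770 was named after its values were seen. Once trends with GC content and with gene length had been removed from each library, ZNF83 (limma adjusted p = 0.013) and ZNF770 (limma adjusted p = 0.11) no longer passed.

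In siSRF cells, 3 members were lower and 15 were higher than in siC, over 21857 genes tested by limma in the same way. This is 1.43% and 7.14% of the members, against a background of 11.2% lower and 14.5% higher among protein-coding genes of at least 2 FPKM in siC, and of 5.34% and 6.85% among all genes tested. The median log2 fold change was 0.07 for the members and 0.04 for the other genes. The 95% interval stayed within 1.5-fold for 141 members and within 2-fold for 201. Groups were separate for 43 lower and 59 higher members (20.5% and 28.1%), against a background of 28.2% and 36.1%.

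ZNF362 (chromosome 1, 33256492 to 33300719, plus strand), a relative of ZNF384, showed the largest change of any member in any comparison. It was at 2.36, 3.09 and 2.99 FPKM in siC, at 2.39, 2.18 and 2.98 FPKM in siIGF2BP1 and at 0.631, 0.461 and 0.814 FPKM in siSRF. The siSRF libraries were far below all others, and the log2 fold change against siC was -2.01 ± 0.24 (SE; limma, adjusted p = 0.0023), from a mean of 49.0 reads per library. ZNF185 was at 5.21, 4.56 and 4.62 FPKM in siSRF, a log2 fold change of -0.55 (limma adjusted p = 0.00709) and the only decrease called in both knockdowns. ZNF318, a nuclear protein known for its role in the splicing choice of immunoglobulin transcripts, was at 5.02, 4.71 and 4.67 FPKM in siC and 3.62, 3.37 and 3.36 FPKM in siSRF. Its log2 fold change was -0.46 (limma adjusted p = 0.00925). After the GC content and length trends were taken out, neither ZNF185 (limma adjusted p = 0.022) nor ZNF318 (limma adjusted p = 0.016) passed in siSRF, whereas ZNF362 did (limma adjusted p = 0.003).

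Among the members that were higher in siSRF, ZNF146 (chromosome 19, 36214602 to 36238771, plus strand) had the largest fold. This protein consists of little but zinc fingers, 10 by the match used. It was at 24.3, 21.8 and 27.7 FPKM in siC, at 26.7, 27.6 and 28.9 FPKM in siIGF2BP1 and at 46.5 FPKM in each of the 3 siSRF libraries. Its log2 fold change in siSRF was 0.92 ± 0.09 (SE; limma, adjusted p = 0.00109). ZNF503 (chromosome 10, 75397830 to 75401764, minus strand), the NET family corepressor, was at 4.93, 5.19 and 6.32 FPKM in siC and at 9.84, 10.2 and 10.7 FPKM in siSRF, a log2 fold change of 0.89 ± 0.10 (SE; limma, adjusted p = 0.00222). ZNF239 (0.71), ZNF438 (0.68), ZNF595 (0.63) and ZNF148 (0.61) followed, the last being a factor that binds GC-rich promoters. All of these had siSRF libraries above every siC library. ZNF143, an activator of small nuclear RNA genes, was at 5.12, 5.01 and 4.83 FPKM in siC and at 7.25, 6.71 and 6.50 FPKM in siSRF (log2 fold change 0.44, limma adjusted p = 0.00701). ZNF644, a partner of the methyltransferases G9a and GLP, was higher by 0.43, ZNF121 by 0.43 and ZNF22 by 0.33 on the log2 scale. These last 4 genes did not pass after the GC content and length trends were taken out (limma adjusted p of 0.023, 0.039, 0.025 and 0.079), nor did ZNF595 (limma adjusted p = 0.0103), while ZNF146, ZNF503, ZNF239, ZNF438 and ZNF148 did.

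**Figure D1:**
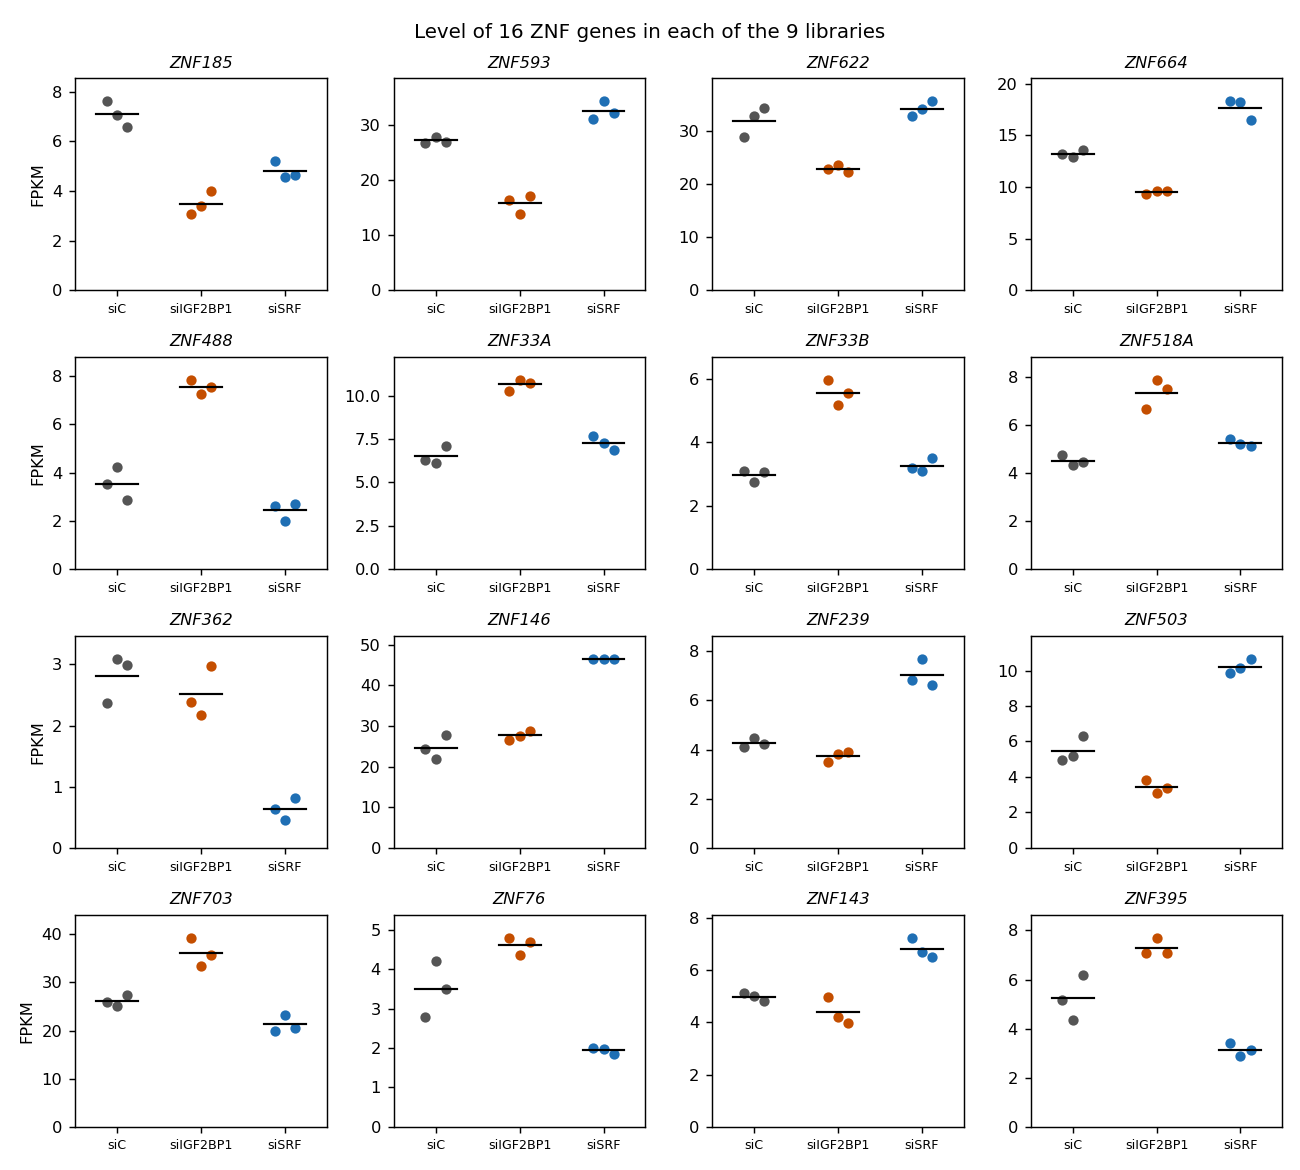
FPKM of 16 ZNF genes in the 9 libraries, with a point per library, a line at the mean of each condition and a y axis that starts at 0 in each panel. ZNF146 stands at 46.5 FPKM in all siSRF libraries against at most 28.9 FPKM elsewhere, ZNF362 is below 1 FPKM in siSRF alone, and ZNF503 and ZNF703 take opposite orders.

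The comparison of siIGF2BP1 with siSRF used no siC library and is thus independent of the values that chose the members. It asks where the knockdowns differ from each other. By limma over 22311 genes, 26 members were lower and 17 were higher in siIGF2BP1 than in siSRF, which is 12.4% and 8.1% of the members. The background among protein-coding genes of at least 2 FPKM in siC was 24% lower and 15.8% higher (11.2% and 8.82% of all genes tested), and the median log2 difference was -0.02 for the members and -0.09 for the others. A difference of at least 2-fold was called for 6 members, a count for which no background was computed. The knockdowns were separate for 70 lower and 51 higher members (33.3% and 24.3%), where the background was 42.1% and 29.4%. Since siIGF2BP1 cells also had less SRF mRNA, the comparison sets IGF2BP1 depletion with partial loss of SRF mRNA against SRF depletion alone.

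ZNF503 and its closest relative ZNF703 (54.1% protein identity) differed in opposite directions. ZNF503 was at 3.82, 3.11 and 3.39 FPKM in siIGF2BP1 and at 9.84, 10.2 and 10.7 FPKM in siSRF, a log2 difference of -1.55 ± 0.09 (SE; limma, adjusted p = 8.77e-05). ZNF703 was at 39.3, 33.4 and 35.7 FPKM in siIGF2BP1 and at 19.9, 23.3 and 20.5 FPKM in siSRF, a log2 difference of 0.76 ± 0.08 (SE; limma, adjusted p = 0.00092). For neither gene did the knockdowns overlap. ZNF503 shares exonic sequence with annotated genes on both strands, whereas no overlap was annotated for ZNF703.

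A second pair of relatives did the same. ZNF76, which like ZNF143 activates small nuclear RNA genes and is 56.7% identical to it, was at 4.80, 4.36 and 4.70 FPKM in siIGF2BP1 and at 2.0, 1.99 and 1.84 FPKM in siSRF (log2 difference 1.21 ± 0.09 SE, limma adjusted p = 0.000244). ZNF143 was at 4.99, 4.21 and 3.99 FPKM in siIGF2BP1 and at 7.25, 6.71 and 6.50 FPKM in siSRF (log2 difference -0.63 ± 0.10 SE, limma adjusted p = 0.00469). In siIGF2BP1 the values of ZNF76 and ZNF143 overlapped, at means of 4.62 and 4.40 FPKM. In siSRF, ZNF143 stood at a mean of 6.82 FPKM and ZNF76 at 1.94 FPKM. The levels of the genes were not tested against each other. Against siC, ZNF76 did not pass in either knockdown (limma adjusted p = 0.142 and 0.0171). For the third pair, ZNF146 and ZNF664, the direction was the same, with log2 differences of -0.75 and -0.89, and ZNF33A and ZNF33B also moved together, at 0.54 and 0.75.

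ZNF664 (chromosome 12, 123971845 to 124015439, plus strand) was the only member called lower in siIGF2BP1 and higher in siSRF. It was at 13.2, 12.9 and 13.6 FPKM in siC, at 9.28, 9.58 and 9.57 FPKM in siIGF2BP1 and at 18.3, 18.2 and 16.5 FPKM in siSRF. The 3 conditions did not overlap, and the direct log2 difference was -0.89 ± 0.06 (SE; limma, adjusted p = 0.00011). Its exons overlap other annotated genes on both strands. The ribosome assembly factor ZNF593 was at 31.2, 34.4 and 32.3 FPKM in siSRF, above siC in every library but short of the threshold (log2 fold change 0.26, limma adjusted p = 0.0128), and its direct log2 difference was -1.04 (limma adjusted p = 0.000322). ZNF622 differed by -0.57 (limma adjusted p = 0.00025).

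Further members that were higher in siIGF2BP1 than in siSRF were ZNF362 (log2 difference 1.85), ZNF488 (1.60), ZNF395 (1.19) and ZNF358 (0.77). ZNF395, a factor induced by low oxygen, was at 5.18, 4.35 and 6.18 FPKM in siC, at 7.08, 7.70 and 7.08 FPKM in siIGF2BP1 and at 3.42, 2.87 and 3.12 FPKM in siSRF. Its siC libraries lay between those of the knockdowns, and neither comparison with siC passed (limma adjusted p = 0.0581 and 0.0169). Lower in siIGF2BP1 were ZNF239 (-0.90), ZNF438 (-0.81), ZNF620 (-0.77) and ZNF121 (-0.50), and of the known-role genes also ZNF462 (-0.46), a nuclear protein of brain development. Of 31 members on a list of zinc finger genes with a known role, 4 were lower and 1 was higher in siIGF2BP1, 2 and 4 in siSRF, and 5 and 3 between the knockdowns, that is 12.9% and 3.23%, 6.45% and 12.9%, and 16.1% and 9.68%. The background among protein-coding genes at the level was 7.97% and 6.43%, 11.2% and 14.5%, and 24% and 15.8%. The median log2 values of the list were 0.01, 0.11 and -0.11. Highly expressed genes of the list that passed in no comparison were ZNF106 and ZNF638, both RNA-associated proteins, ZNF207, a spindle assembly factor, ZNF24 and ZNF598.

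**Figure D2:**
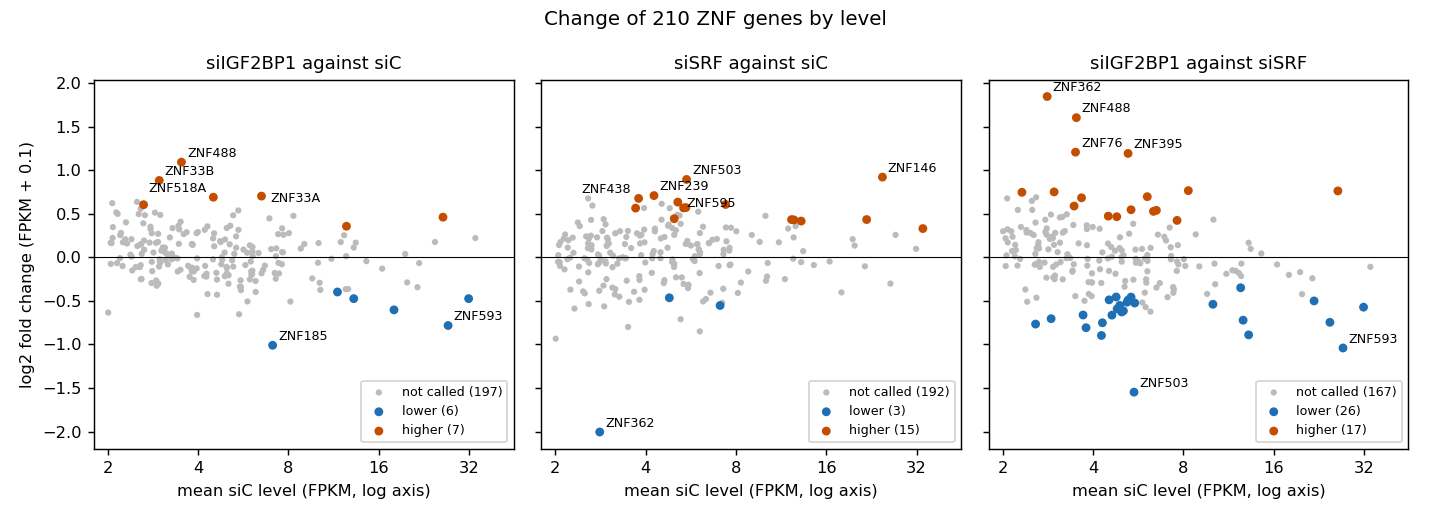
Log2 fold change of the 210 ZNF genes against their mean siC level in FPKM (log axis) for the 3 comparisons, with lower members in blue, higher members in orange and the others in grey. Most points lie within 0.5 of 0, and the members furthest out, such as ZNF362 at -2.01 in siSRF and ZNF503 at -1.55 between the knockdowns, are of low to moderate level.

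Taking the comparisons side by side, 157 members were called in none and 53 in at least 1. ZNF770 alone was called higher in both knockdowns. Of the 26 members lower in siIGF2BP1 than in siSRF, 15 passed in neither comparison with siC, and the same held for 10 of the 17 that were higher. The comparisons with siC share the siC libraries, so that their calls are not independent of each other.

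Since members stand at lower levels than other genes, the share of calls was set beside that of the other protein-coding genes within bands of siC level. Between 2 and 4 FPKM, 1.03% of 97 members were lower and 2.06% were higher in siSRF, against 6.22% and 6.5% of 1768 other genes. Between 4 and 8 FPKM these shares were 2.5% and 8.75% of 80 members against 8.44% and 11.9% of 2358 genes. At 8 FPKM or more, none of the 33 members was lower in siSRF and 18.2% were higher, against 14.8% and 19% of 4887 genes. For siIGF2BP1 in the same top band, 15.2% of the members were lower and 6.06% were higher, against 13.1% and 7.35%. Thus the lower calls of siIGF2BP1 fell mostly among highly expressed members, 5 of the 6, as they did among other genes. The share of members called lower in siSRF was below that of other genes in each band. No test was made of these differences, and the median standard error was 0.111 for members and 0.0851 for other genes in this comparison.

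**Figure D3:**
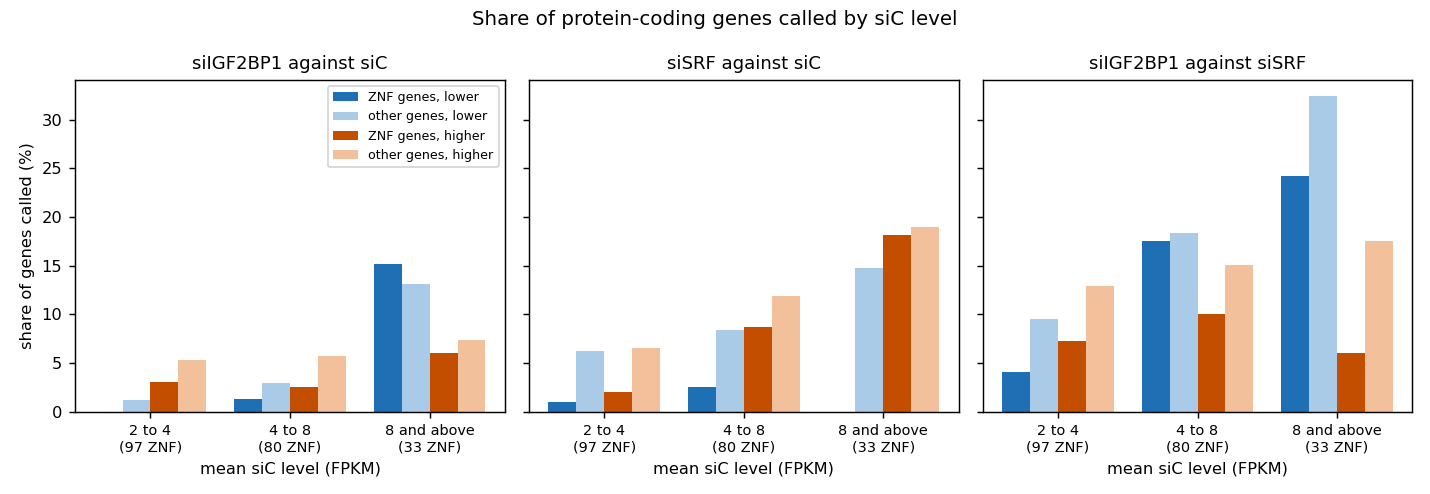
Share of genes called lower (blue) or higher (orange) in percent within 3 bands of mean siC level, for ZNF genes (dark bars) and other protein-coding genes (light bars), with the number of ZNF genes under each band. Above 8 FPKM no ZNF gene was lower in siSRF against 14.8% of other genes, whereas the share lower in siIGF2BP1 was 15.2% against 13.1%.

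Most calls fell on members without a KRAB domain, a difference that was not tested. Members with a KRAB match rested on fewer reads per library than those without (medians of 151 and 195), and their median standard error in siSRF was 0.118 against 0.0998. Of the 96 with a KRAB match, none was lower and 2 were higher in siSRF, and 1 was lower and 2 were higher in siIGF2BP1. Of the 113 without, 3 were lower and 13 were higher in siSRF, and 5 were lower and 5 were higher in siIGF2BP1. In the direct comparison, 8 KRAB members were lower and 6 were higher, against 18 and 11 of those without, with median log2 differences of 0.07 and -0.09. In percent, KRAB members reached 1.04% lower and 2.08% higher in siIGF2BP1, 0% and 2.08% in siSRF, and 8.33% and 6.25% between the knockdowns, and the others 4.42% and 4.42%, 2.65% and 11.5%, and 15.9% and 9.73%. All of these lay below the background, of 7.97% and 6.43%, 11.2% and 14.5%, and 24% and 15.8%, in both directions. The summed level of the members without KRAB was 826, 829 and 849 FPKM in siC, 833, 816 and 840 FPKM in siIGF2BP1 and 913, 930 and 937 FPKM in siSRF. The siSRF sums lay above all others, at 111% of the siC mean. Such a sum is weighted towards abundant members, among them ZNF146 at means of 24.6 FPKM in siC and 46.5 FPKM in siSRF. No sum was computed for other genes. The median log2 fold change in siSRF was 0.14 for members without a KRAB match and 0.03 for those with one. The KRAB sum was 399, 396 and 419 FPKM in siC, 412, 425 and 415 FPKM in siIGF2BP1 and 417, 413 and 413 FPKM in siSRF, with overlap between siC and both knockdowns. Members on chromosome 19 had a median log2 fold change of 0.09 in siIGF2BP1, where the 470 other genes of that chromosome at this level had -0.17. In siSRF these medians were -0.005 and -0.11, and between the knockdowns 0.11 and -0.05. These genes were not matched to the members for GC content, and the differences were not tested.

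By number of fingers, the lower calls of siIGF2BP1 were spread over 3 of 43 members with 0 to 4 fingers (6.98%), 2 of 69 with 5 to 9 (2.9%) and 1 of 97 with 10 or more (1.03%), beside a background of 7.97%. Higher in siIGF2BP1 were 2, 1 and 4 members of these classes (4.65%, 1.45% and 4.12%), beside a background of 6.43%. In siSRF, 2, 9 and 4 members were higher (4.65%, 13% and 4.12%), beside a background of 14.5%. Lower in siSRF were 2, 1 and 0 members (4.65%, 1.45% and 0%), beside a background of 11.2%. All of these shares lay below the background. The median reads per library were 196, 171 and 162 in the 3 classes. Spearman's rho between finger number and estimate was 0.12 over 209 members in siIGF2BP1, -0.04 in siSRF and 0.12 between the knockdowns. As for all correlations across genes given here, the genes share libraries and are not independent replicates, so no p is given.

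The changes varied with the GC content of the transcripts. Spearman's rho between the GC content of the main transcript and the change was -0.46 over the 210 members in siIGF2BP1 and -0.39 in siSRF, and -0.26 and -0.46 over 9002 other protein-coding genes. In the tercile of lowest GC content, 50 of 70 members had an estimate above 0 on the log2 scale in siIGF2BP1 and 55 of 70 in siSRF, with medians of 0.17 and 0.21. In the tercile of highest GC content these were 25 and 29 of 70, with medians of -0.16 and -0.07. Between the knockdowns the relation was not seen over the members (rho of -0.002), and it was 0.20 over the other genes. After the trends were removed, rho over the members was -0.15 in siIGF2BP1, 0.12 in siSRF and -0.17 between the knockdowns. Over the other genes it was -0.02, -0.08 and 0.04. Removal thus left a relation in the members, with its sign reversed in siSRF and its size larger between the knockdowns. This limits the values after trend removal given for single members. The part of base composition in the single calls was not tested beyond the values after trend removal given for the genes above.

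**Figure D4:**
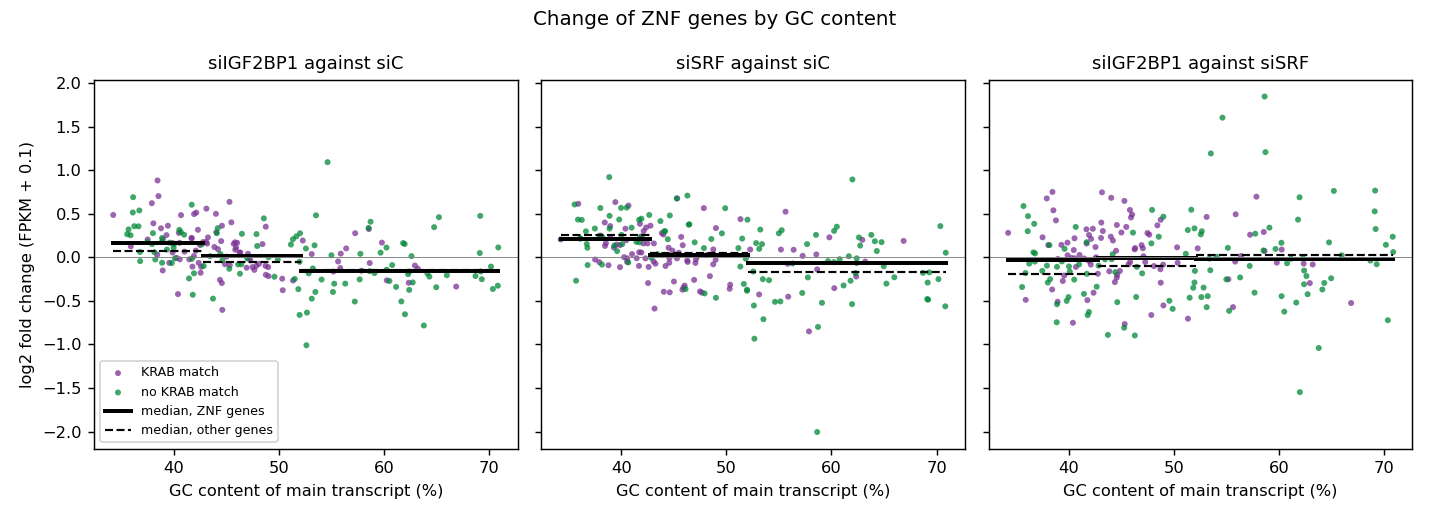
Log2 fold change of the ZNF genes against the GC content of the main transcript in percent, for members with (purple) and without (green) a KRAB match. Solid lines give the median of the members and dashed lines that of other protein-coding genes within each tercile of member GC content. The solid lines fall from 0.17 to -0.16 in siIGF2BP1 and from 0.21 to -0.07 in siSRF and stay near 0 between the knockdowns. The dashed lines run from 0.07 to -0.15 in siIGF2BP1, from 0.26 to -0.17 in siSRF and from -0.19 to 0.03 between the knockdowns.

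Gene length, which enters the FPKM values, was similar for members and other genes, with medians of 5030 and 5100 bases. The coding part was longer in members, at a median of 1761 against 1365 bases, and so was the 3′UTR, at 1602 against 1343 bases. Between gene length and change, Spearman's rho over the members was 0.26 in siIGF2BP1, 0.02 in siSRF and 0.19 between the knockdowns, and 0.18, 0.03 and 0.11 over the other genes. In siIGF2BP1, the shortest tercile had a median log2 fold change of -0.13 and the longest of 0.13, with 3 lower members (4.29%) against none. Of the other protein-coding genes in these length ranges, 11.2% and 5.61% were lower, with medians of -0.11 and 0.02. The member shares lay below these, so nothing particular to ZNF genes is read from the 3 calls.

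SRF binds the CArG box, a CC and a GG flanking 6 bases of A or T. Promoters were taken from 250 bases before to 50 bases after the start of the main transcript and searched on both strands. A box was found for 2 of 180 members (1.11%) whose promoter was searched and for 351 of 27305 promoters in all (1.29%). They are shown because SRF was depleted, with the box in capitals on the strand of the gene.
ZNF687: aaaggggagcCCTTAAATGGgaaatggagc
ZNF562: taaaccgcccCCAAATATGGgccccacccc
The window of ZNF687 is chr1:151281381-151281410 and that of ZNF562 is chr19:9675300-9675329 on the minus strand (GRCh38), and the boxes start at positions -131 and -219 relative to the transcript starts. ZNF687 was at 6.46, 8.0 and 7.14 FPKM in siC and at 4.70, 4.98 and 5.23 FPKM in siSRF, all below siC, but it did not pass the threshold (log2 fold change -0.52, limma adjusted p = 0.0116). ZNF562 was at 5.14, 4.58 and 5.22 FPKM in siC and at 4.70, 4.71 and 4.39 FPKM in siSRF, with overlap. These windows are descriptions of sequence, and binding of SRF was not measured here.

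The partners through which KRAB zinc fingers act were followed by a list of 28 tested genes, most of them of the TRIM28, SETDB1, heterochromatin protein 1, NuRD and HUSH complexes. The list also held DNMT1, UHRF1, SUV39H1, SUV39H2, EHMT1, EHMT2 and SMARCAD1. EHMT2 stood at 1.29 FPKM in siC, below the level of the background genes. In siIGF2BP1, 2 were lower and 1 was higher (background 7.97% and 6.43% of protein-coding genes at the level), and in siSRF 3 were lower and 2 were higher (11.2% and 14.5%). Between the knockdowns, 6 were lower and 4 were higher in siIGF2BP1 (24% and 15.8%). The median log2 value over the list was 0.02, -0.18 and 0.05. With numbers this small, nothing particular to the list is read from these counts. TRIM28 itself, the corepressor, was at 144, 158 and 159 FPKM in siC, at 127, 114 and 124 FPKM in siIGF2BP1 and at 131, 136 and 140 FPKM in siSRF. All knockdown libraries were below all siC libraries, but neither comparison passed (log2 fold changes of -0.34 and -0.18, limma adjusted p = 0.0156 and 0.0583), and the estimate in siSRF turned to 0.08 once GC content and length trends were removed. SETDB1 (4.61, 5.01 and 4.72 FPKM as means of siC, siIGF2BP1 and siSRF) and CBX5 (24.8, 26.2 and 24.4 FPKM) did not pass either. FAM208A, a HUSH subunit, was lower in both, at log2 fold changes of -0.59 (limma adjusted p = 0.0046) and -0.45 (limma adjusted p = 0.00644), and so was UHRF1, which reads methylated DNA (-0.46 and -0.29). CBX1, a heterochromatin protein 1, was higher in siIGF2BP1 (0.53). In siSRF, the NuRD subunit MTA1 was lower (-0.62), and MORC2, an ATPase working with HUSH, and the remodeller SMARCAD1 were higher (0.58 and 0.56). After removal of the trends, UHRF1 (-0.12, limma adjusted p = 0.0656) and SMARCAD1 (0.34, limma adjusted p = 0.0369) no longer passed in siSRF.

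The counts of members depended on the test. With limma-voom on the reads recovered from the values, 16 members were lower and 23 higher in siIGF2BP1, 17 and 35 in siSRF, and 43 and 32 between the knockdowns. By that test the background among protein-coding genes at the level was 18.3% and 14%, 20.3% and 26.1%, and 33.5% and 22.8%. At an unadjusted p under 0.05, limma on the FPKM values gave 67, 91 and 105 members in the 3 comparisons, with a background of 48.6%, 59.9% and 67.3%. With 3 libraries against 3, an exact permutation test of a single gene cannot go below 0.1.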

How the data were processed

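RNA of ES-2 cells (siC, siIGF2BP1, siSRF, 3 libraries each) was analysed. The authors clipped reads with cutadapt 1.14, aligned them with HISAT2 2.1.0 to GRCh38, counted them with featureCounts 1.5.3 on Ensembl genes and deposited FPKM, normalized with TMM in edgeR 3.18.1 (versions per the labels' processing notes and the study's methods). The deposited log2 fold changes, p-values and FDR of the authors' own comparisons were not used. Both tables give the same siC values, and the 9 scaling factors multiply to 1, so the libraries share a scale. FPKM times gene length gave whole reads for 100% of values (tolerance 0.02).

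Conditions were compared with limma 3.58.1 (trend) in R 4.3.3 on log2(FPKM + 0.1), which understates changes of low genes, keeping genes that averaged 0.1 FPKM or more in the 6 libraries compared, with p-values adjusted over all kept. In simulated siIGF2BP1 and siC libraries, limma-trend recovered 44.5% of 200 genes changed 2-fold among 21327, with 23 false calls. Limma-voom recovered 86.5% of them, with 1 false call. Of 3000 genes changed 2-fold among 21355, limma-trend recovered 83.83% with 54 false calls, and limma-voom 90.87% with 19. In both simulations limma-trend, the main test, thus recovered fewer changed genes and made more false calls, so there it was not merely the stricter test. The simulated reads were drawn from a count model with the same dispersion, a measure of spread between libraries, for every gene. They held no trends with GC content or gene length, so the simulations do not decide which test does better on the real libraries. Annotation was GENCODE 44, a later one than the authors used. Protein relatives came from BLAST+ 2.17.0, as the closest member aligned over at least 80% of the length. A KRAB match was searched within the first 350 residues.

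The members and lists were chosen with earlier results of these data known. Genes named are, per comparison and direction, the 6 called members of largest change with separate libraries, the 6 highest in siC, the 3 on each side of the level, members with a known role that were called or among the 10 highest, called corepressors with TRIM28, SETDB1 and CBX5, the targeted genes, and closest relatives. Other genes were named after their values were seen.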

Additional observations from a re-analysis of the deposited data

How the results depend on the processing

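Counts of called members, lower and higher, were 6 and 7 (siIGF2BP1 against siC), 3 and 15 (siSRF against siC) and 26 and 17 (siIGF2BP1 against siSRF) as reported. With limma-voom on recovered reads they were 16 and 23, 17 and 35, and 43 and 32, and at an adjusted p of at most 0.05 they were 17 and 18, 18 and 35, and 48 and 31. In the order of the comparisons, the count of siSRF against siC became 9 and 23 with a mean of at least 1 FPKM, 10 and 25 with all 9 libraries in one fit, and 7 lower with median-ratio rescaling. Among members of at least 5 FPKM in siC, 3 were higher in siIGF2BP1, 1 lower in siSRF, and 14 lower and 8 higher between the knockdowns. Without members whose exons overlap another gene, an alternative chosen after seeing the data, 98 members remained, with 2 lower and 3 higher in siIGF2BP1, 8 higher in siSRF, and 11 lower and 7 higher between the knockdowns. For the counts of this section, a background was computed only for the reported ones and those of limma-voom. The counts show how the number of calls depends on the settings, and nothing particular to ZNF genes is read from them.

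Leaving out each library in turn gave 0 to 2 lower and 0 to 2 higher members in siIGF2BP1, 0 to 3 and 2 to 10 in siSRF, and 12 to 17 and 7 to 11 between the knockdowns, from fewer samples. Each of the 6 libraries of a comparison lowered its counts by over 1.5 times when left out, except siC replicate 1 for the lower and siC replicate 3 for the higher members of siSRF. Of the 13, 18 and 43 calls, 0, 2 and 18 passed in all 6 such fits and 6, 5 and 7 in none, and all kept their direction. ZNF146 and ZNF148 were the ones that always passed in siSRF.

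With the replicate number as a block, no member passed in either comparison with siC, and 6 lower and 4 higher passed between the knockdowns. Same-numbered libraries did not deviate together (correlations of -0.044 to 0.019 over 14168 genes), so the numbers do not pair the samples.

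The median log2 fold change of siIGF2BP1 against siC, 0.0344, became -0.00487 with the gene length trend removed, -0.00605 with GC content and gene length trends removed and -0.0455 for members of at least 5 FPKM. That of siSRF, 0.072, became 0.0217 with median-ratio rescaling, 0.0446 with GC content and gene length trends removed and 0.0204 for members of at least 1 FPKM. Between the knockdowns, -0.018 became 0.0504 with rescaling, -0.0549 and -0.0419 with the trends removed, 0.0156 at 1 FPKM and -0.107 at 5 FPKM. The cause of these shifts was not tested. Over the named members, 1497 alternative values kept their direction and their side of the threshold, 209 lost and 45 gained a call, and 25 changed sign. Among the other named genes, 17 values changed sign. None of the values that changed sign was called under either setting.

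With GC content and gene length trends removed, the log2 fold change in siIGF2BP1 turned to -0.0398 (CBX3), -0.0829 (CBX5), -0.0701 (ZNF106) and -0.0404 (ZNF318). In siSRF it turned to 0.0819 (TRIM28), 0.165 (ZNF598), -0.0239 (ZNF33A), -0.0531 (ZNF33B) and -0.0689 (ZNF638), and between the knockdowns to 0.00251 (ZNF22), -0.0282 (ZNF207) and 0.0924 (ZNF484). With the length trend alone removed, it turned to -0.062 (CBX5), -0.0674 (ZNF106) and -0.0674 (ZNF318) in siIGF2BP1, and to -0.0224 (CBX5) and -0.0915 (ZNF207) between the knockdowns. Rescaling turned SETDB1 (-0.0151) and ZNF34 (-0.0236) in siSRF and ZNF484 (0.0517) between the knockdowns. Leaving out 1 library, values crossed 0 in siIGF2BP1 for RBBP4 (-0.129 to 0.0359), ZNF207 (-0.0761 to 0.0049), ZNF318 (-0.0167 to 0.0344), ZNF462 (-0.187 to 0.078) and ZNF620 (-0.227 to 0.0904). They did so in siSRF for CBX5 (-0.0884 to 0.0122), SETDB1 (-0.0815 to 0.118), ZNF34 (-0.146 to 0.237) and ZNF616 (-0.204 to 0.109), and between the knockdowns for ZNF34 (-0.312 to 0.0713) and ZNF484 (-0.104 to 0.0816). Depth limits the members near 2 FPKM, which rest on few reads.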

Other observations

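Of the 13 ZNF genes on chromosome 10, 8 were called in at least 1 comparison, and of all 210 members 53 were. In siIGF2BP1, ZNF33A, ZNF33B, ZNF488 and ZNF518A were higher, and in siSRF ZNF22, ZNF239, ZNF438 and ZNF503 were higher, with none lower in either. They lie between positions 30820207 and 96205288 (GRCh38). On chromosome 7, by contrast, no member of 17 was called against siC in either knockdown, and on chromosome 16 none of 16. Among all protein-coding genes at the level, 6.43% were higher in siIGF2BP1 and 14.5% in siSRF. The share called in at least 1 comparison, and shares for other genes of these chromosomes, were not computed. Reads within identical runs of ZNF33A and ZNF33B cannot be assigned to either gene, as given above, so their calls may not be separate. This pattern was noticed after the values were seen and was given no test, and with numbers this small nothing particular to a chromosome is read from it.

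The 9 members with a SCAN domain, a dimerization module of zinc finger proteins, had a median log2 fold change of 0.31 in siSRF. Of them, 8 had a positive one, although none passed the threshold. Over all members the siSRF median was 0.07, with a positive value in 120 of 210, and it was 0.04 over the other protein-coding genes at the level. Between the knockdowns 3 SCAN members were lower in siIGF2BP1 (33.3%) and none was higher, beside a background of 24% and 15.8% among protein-coding genes at the level. With 9 members, nothing particular to them is read from either comparison.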
